A study of Mus musculus with 8 samples.

Results

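The Hedgehog pathway of the fetal mouse lung is described here through 8 genes, chosen by symbol for their place in the pathway and not for their values, of the 55385 gene identifiers counted in each library. They are the ligand Shh, its receptor Ptch1, the signal transducer Smo, the transcription factors Gli1, Gli2 and Gli3, the ligand-binding antagonist Hhip and the Gli inhibitor Sufu. RNA came from whole lungs of C57BL/6 fetuses at E18.5, from 4 Control lungs and 4 lungs after tracheal occlusion (TO). Occlusion was made 2 days before collection by a suture passed through the uterine wall around the trachea, and the same suture closed a carotid artery and a jugular vein. Dams were given progesterone between surgery and collection, and a sham procedure for the controls is not described in the sources used here. All 8 libraries hold the same age, strain and tissue, and they are called control 1 to 4 and TO 1 to 4 after the replicate numbers of the labels.

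Sonic hedgehog is secreted by the epithelium of the growing lung and acts on the mesenchyme beneath it. Without ligand, Ptch1 holds Smo inactive, protein kinase A marks the Gli factors for processing into repressors in the primary cilium, and Sufu retains them. With ligand, Smo enters the cilium, activator forms of Gli2 and Gli3 reach the nucleus, and the cell transcribes Gli1, Ptch1 and Hhip, which makes these 3 genes the usual readout of the pathway. Ptch1 and Hhip then bind ligand themselves, so the readout is also the brake. Loss of Shh in the mouse leaves a lung with little branching and a thin mesenchyme.

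TO 1 was shallow, with 270078 read pairs on genes, so that each of the 8 genes rested on 7 to 44 of them, and the other 7 libraries had 22822261 to 35002061. The study itself showed 6 of the libraries, without control 3 and TO 1 and without giving a reason. These 6 are compared first (control 1, 2 and 4 against TO 2, 3 and 4), then 7 libraries (all but TO 1), then all 8. The deposited specimen names carry a number that the labels do not explain, 3482 for control 1, control 4, TO 1 and TO 4, 3573 for control 2 and TO 2, and 3604 for control 3 and TO 3. Control 3 and TO 3 stood apart from the other deep libraries in a list of 6 cell cycle genes, with a mean of 5.70 and 5.67 log2 CPM against 6.66 to 7.51. Nothing in the sources used here says whether the lungs of a group came from separate litters, so p-values measure the spread between these samples.

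Levels are CPM, each count divided by its library's total on genes and put on a common base with TMM scaling, and a gene was called at an adjusted p below 0.1 over all genes tested. None of the 8 genes was called by the quasi-likelihood test of edgeR in the 6, the 7 or the 8 libraries, and neither was any other gene (background 0.00% of the 21859 genes tested in the 6 libraries, 0.00% of 22539 in the 7 and 0.00% of 22545 in all 8). At an unadjusted p below 0.05, edgeR took 1123 genes in the 6 libraries, 451 in the 7 and 530 in the 8. DESeq2 called 44 genes (0.201%) in the 6 libraries and limma-voom called 0, with 1361 at an unadjusted p below 0.05. DESeq2 called none of the 8 Hedgehog genes.

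The 250 bases before the start of Hhip and of Ptch1 are shown because both genes are transcribed in answer to the ligand. Capitals mark GGGTGG or its reverse complement CCACCC, the core of the Gli binding motif TGGGTGGTC. Sequences are those of RefSeq on GRCm38.p6, written 5′ to 3′ on the strand of the gene, for Hhip chr8:80058009-80058258 and for Ptch1 chr13:63565736-63565985, both on the minus strand.
Hhip: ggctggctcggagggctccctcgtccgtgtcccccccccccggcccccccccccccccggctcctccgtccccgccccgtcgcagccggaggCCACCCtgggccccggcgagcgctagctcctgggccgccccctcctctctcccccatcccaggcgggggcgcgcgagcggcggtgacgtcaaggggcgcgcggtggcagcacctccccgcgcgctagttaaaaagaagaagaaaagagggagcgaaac
Ptch1: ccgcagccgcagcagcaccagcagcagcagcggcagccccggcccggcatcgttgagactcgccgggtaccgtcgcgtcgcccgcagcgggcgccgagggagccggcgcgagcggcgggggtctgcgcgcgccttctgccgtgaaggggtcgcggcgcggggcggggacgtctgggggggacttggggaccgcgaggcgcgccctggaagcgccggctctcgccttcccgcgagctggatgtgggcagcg
GGGTGG was present once before Hhip and was not found before Ptch1, whose RefSeq start lies inside the longer span that GENCODE gives the gene. Promoters of 6 of the 8 genes were in the table, and GGGTGG on either strand was in 4 of them (Gli2, Smo, Hhip and Gli3). Of all 32851 promoters of this length, 28.1% held it. TGGGTGGTC was in none of the 6 and in 0.225% of all promoters. A match describes letters in this window of the reference and is not a binding site. Its bearing on the levels of these genes was not tested.

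Per kilobase of merged exons, which makes levels comparable between genes, the antagonist and the ligand were the most abundant of the 8. Over the 7 deep libraries the mean was 27.4 ± 6.59 CPM per kb (SD, n = 7) for Hhip and 26.2 ± 7.24 for Shh. The receptor pair followed, with 17.8 ± 3.25 for Ptch1 and 17.4 ± 3.34 for Smo. Gli1 stood at 7.58 ± 2.57, Sufu at 6.34 ± 0.515, Gli3 at 4.17 ± 0.914 and Gli2 at 3.82 ± 0.644 CPM per kb. The steps from Smo to Gli1 and from Sufu to Gli3 held in 7 of 7 libraries, by merged exons and by the longest transcript alike. The step from Shh to Ptch1 held in 7 of 7 by merged exons, but by the longest transcript in 4 of 7, with means of 26.2 CPM per kb for Shh, 25.9 for Smo and 24.3 for Ptch1, so Shh was not separated from the receptor pair on that length. Neighbours were not separated within the pairs Hhip and Shh (Hhip higher in 3 of 7 libraries), Ptch1 and Smo (Ptch1 higher in 4 of 7), Gli1 and Sufu (Gli1 higher in 4 of 7) and Gli3 and Gli2 (Gli3 higher in 5 of 7). With the longest transcript Smo came before Ptch1 and Sufu before Gli1.

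Shh (ENSMUSG00000002633.4, GRCm38 chromosome 5, 28456815 to 28467256, minus strand) encodes the ligand. Its level was 91.7 CPM in control 1, 113 in control 2, 56.3 in control 3 and 71.8 in control 4. In the TO lungs it was 34.4 CPM in TO 1, where 10 read pairs give a 95% counting interval of 16.5 to 63.3, then 70.9 in TO 2, 59.7 in TO 3 and 59.4 in TO 4. The 3 TO lungs of the 6 libraries lay below the 3 controls by a narrow margin, TO 2 against control 4, and control 3 lay below TO 2, TO 3 and TO 4. Means were 92.0 ± 20.4 CPM in control and 63.3 ± 6.55 in TO (SD, n = 3 each). The fitted log2 fold change was -0.54 (SE 0.16, 95% interval -0.91 to -0.17), a level 0.687 times that of control, with an unadjusted edgeR p of 0.00927 and an adjusted p of 0.907. In all 8 libraries it was -0.48 (-0.98 to 0.01) with an unadjusted edgeR p of 0.0554, and in the 7 libraries -0.39 (-0.88 to 0.09) with 0.102. In RNA of whole lungs, fewer cells of a type and less RNA per cell cannot be told apart.

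Because the epithelium is the source of Shh, its markers are given beside it. The list of 9 epithelial genes, which include Epcam, Nkx2-1 and Sftpc, had a mean of 8.30 to 8.71 log2 CPM in the controls and 8.17 to 8.56 in TO 2, TO 3 and TO 4, and 6 of 9 had a fold change below 0, with 1 of 9 at an unadjusted p below 0.05. That gene was Epcam, with a log2 fold change of -0.55 (unadjusted edgeR p of 0.0107), and the other 8 had -0.27 (Krt18) to 0.38 (Sftpb). The count of Shh per count of Epcam overlapped between groups. It was 0.507, 0.706, 0.459 and 0.455 in control 1 to 4 and 0.3125, 0.685, 0.654 and 0.411 in TO 1 to 4. The 4 genes of the distal tip (Sox9, Etv5, Id2 and Etv4), the progenitors at the ends of the branches, had a fold change below 0 in 4 of 4 with none at an unadjusted p below 0.05, and were lowest in control 3 (4.85 log2 CPM) and TO 3 (5.16) against 5.77 to 6.04 in the other deep libraries. The part of either list in the level of Shh was not tested.

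**Figure D1:**
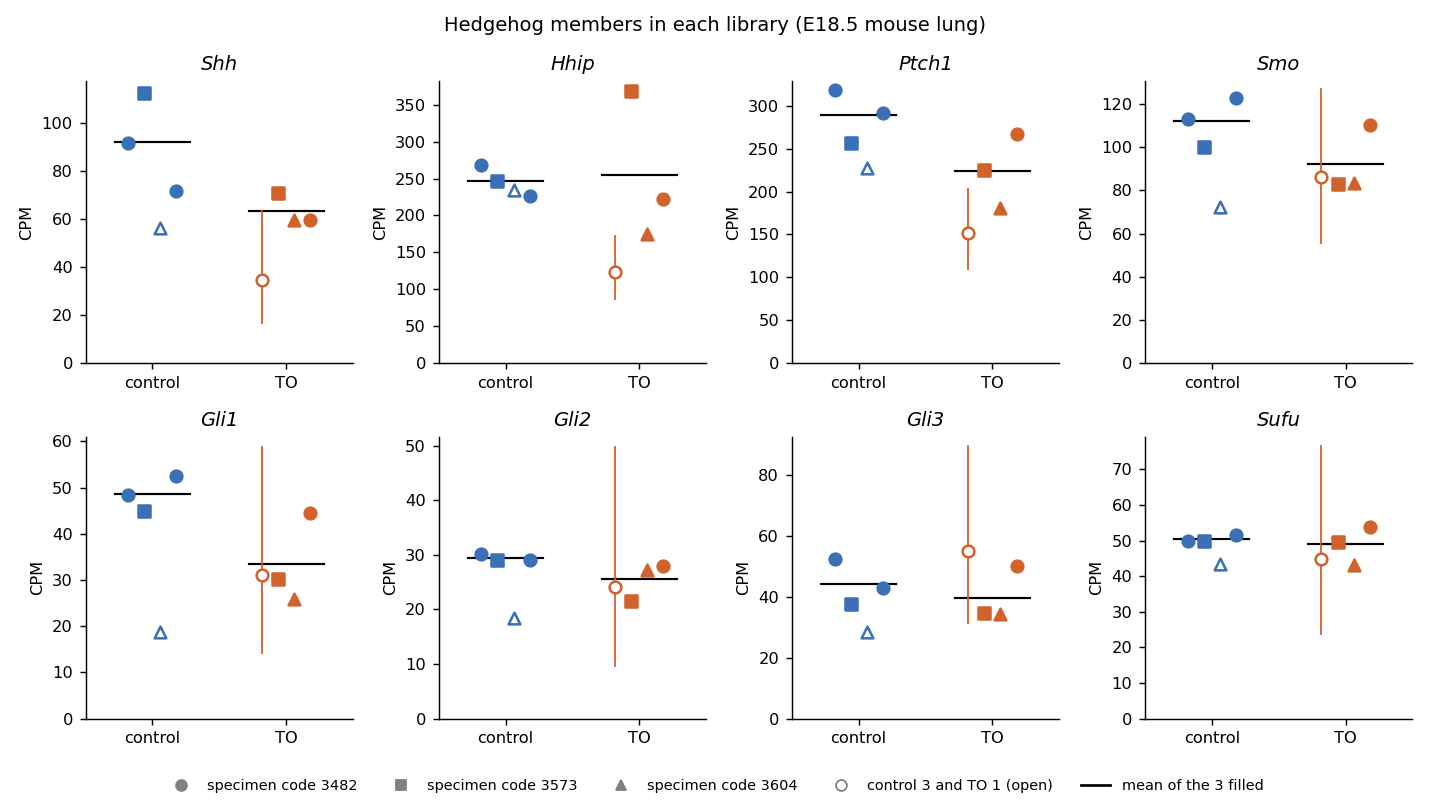
Level (CPM) of the 8 Hedgehog genes in each library, control on the left and TO on the right of each panel, with marker shape for the specimen number, open markers for control 3 and TO 1, a vertical line for the 95% counting interval of TO 1 and a black bar for the mean of the 3 filled markers. Filled TO markers lie below filled controls for Shh, Gli1 and Gli2, for Gli1 only just, and the open control 3 lies below them.

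Ptch1 (ENSMUSG00000021466.12, chromosome 13, 63508328 to 63573598, minus strand) is both the receptor for Shh and one of its targets. Control lungs held 319, 257, 227 and 292 CPM (control 1 to 4). TO lungs held 151 (44 read pairs, interval 110 to 203), 225, 181 and 267 CPM (TO 1 to 4). The groups overlapped, since TO 4 lay above control 2 and control 3, while TO 1, TO 2 and TO 3 lay below every control. TO 2 was only just below control 3, and without TMM scaling it was above control 3, at 222 against 209 CPM. Means over the 6 libraries were 289 ± 31.0 CPM in control and 224 ± 43.3 in TO. The log2 fold change was -0.37 (SE 0.16, -0.72 to -0.01) with an unadjusted edgeR p of 0.0466 and an adjusted p of 0.907. It was -0.38 (-0.77 to 0.01) in all 8 libraries and -0.29 (-0.66 to 0.09) in the 7.

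Smo (ENSMUSG00000001761.7, chromosome 6, 29735503 to 29761365, plus strand) encodes the membrane protein that carries the signal inward. Its level was 113, 100, 72.2 and 123 CPM in control 1 to 4 and 86.1, 82.7, 83.4 and 110 in TO 1 to 4. TO 4 sat among the controls, and control 3 was the lowest of the deep libraries. The log2 fold change was -0.28 (SE 0.15, -0.62 to 0.06) in the 6 libraries, with an adjusted edgeR p of 0.907, and -0.16 (-0.55 to 0.23) in all 8.

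Gli1 (ENSMUSG00000025407.7, chromosome 10, 127329882 to 127341974, minus strand) is an activator that cells make in answer to the ligand. Controls 1, 2 and 4 held 48.5, 44.9 and 52.5 CPM, and control 3 held 18.8, the lowest of any library. TO lungs held 31.0 (9 read pairs, interval 14.2 to 58.8), 30.1, 25.8 and 44.5 CPM (TO 1 to 4). Without control 3 and TO 1 the groups did not overlap, with TO 4 just under control 2. Without TMM scaling TO 4 was above control 2, at 45.6 against 44.9 CPM, so this separation depends on the scaling. With control 3 the groups overlapped. Over the 6 libraries the means were 48.6 ± 3.81 CPM in control and 33.5 ± 9.79 in TO, a log2 fold change of -0.53 (SE 0.20, -0.995 to -0.073) with an unadjusted edgeR p of 0.0277 and an adjusted p of 0.907. The value was -0.31 (-0.96 to 0.35) in all 8 libraries and -0.30 (-1.03 to 0.44) in the 7. Without TO 4 the log2 fold change of Gli1 was -0.79 and the adjusted edgeR p 0.0917, the one setting of those tried in which any of the 8 genes was called, and there 0.692% of all genes were called and 0.308% were called lower in TO.

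Gli2 (ENSMUSG00000048402.14, chromosome 1, 118834132 to 119053619, minus strand) is the main activator downstream of Smo. It was even in the controls apart from control 3, at 30.2, 29.1, 18.49 and 29.1 CPM (control 1 to 4), against 24.1, 21.6, 27.2 and 27.9 in TO 1 to 4. TO 2, TO 3 and TO 4 lay below control 1, control 2 and control 4, and above control 3. TO 1 rests on 7 read pairs, and its 95% counting interval of 9.69 to 49.7 CPM spans every control, so it cannot be placed. The log2 fold change was -0.21 (SE 0.15, -0.54 to 0.13) in the 6 libraries and -0.07 (-0.50 to 0.36) in all 8.

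Gli3 (ENSMUSG00000021318.15, chromosome 13, 15463235 to 15730026, plus strand) works mainly as a repressor. Levels of 52.3, 37.7, 28.4 and 42.9 CPM in control 1 to 4 stood against 55.1, 34.7, 34.2 and 50.0 in TO 1 to 4. Neither group lay above the other, and the log2 fold change was -0.16 (SE 0.19, -0.59 to 0.28) in the 6 libraries and 0.04 (-0.44 to 0.53) in all 8. The count of Gli1 per count of Gli3 was 0.927, 1.19, 0.664 and 1.22 in control 1 to 4 and 0.563, 0.868, 0.755 and 0.891 in TO 1 to 4. In the 6 libraries the 3 TO ratios lay below the 3 control ratios, and control 3 again lay below TO 2, TO 3 and TO 4. The margin was narrow, TO 4 against control 1, and the ratio of TO 1 rests on 9 and 16 read pairs. Gli1 per count of Smo also split in the 6 libraries. Gli1 per count of Ptch1 did not, at 0.167 in TO 4 and 0.152 in control 1. How often other gene pairs split in this way was not counted.

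Hhip (ENSMUSG00000064325.4, chromosome 8, 79965851 to 80058006, minus strand) encodes a membrane protein that binds and sequesters the ligand, and like Ptch1 it is transcribed in answer to it. Controls lay close together at 268, 247, 235 and 227 CPM (control 1 to 4). TO lungs spread over 124 (36 read pairs, interval 86.8 to 172), 368, 175 and 222 CPM (TO 1 to 4). TO 2 lay above every control and the other 3 TO lungs below every control. TO 4 was only just below control 4, and without TMM scaling it was above control 3, at 228 against 216 CPM. The means of 247 ± 20.8 CPM in control and 255 ± 101 in TO gave a log2 fold change of 0.04 (SE 0.24, -0.49 to 0.58). Without TO 2 it was -0.31, with an unadjusted edgeR p of 0.0729 and an adjusted p of 0.898. Without TO 3 it was 0.27, with an unadjusted edgeR p of 0.206. The count of Hhip per count of Ptch1 was 0.842, 0.961, 1.03 and 0.776 in control 1 to 4 and 0.818, 1.64, 0.967 and 0.831 in TO 1 to 4, so that TO 2 alone lay outside the range of the controls. A difference between the fold changes of Hhip and Ptch1 was not tested.

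Sufu (ENSMUSG00000025231.17, chromosome 19, 46396896 to 46488804, plus strand), which binds Gli proteins and keeps them from the nucleus, was the steadiest of the 8. It held 49.8, 49.8, 43.5 and 51.6 CPM in control 1 to 4 and 44.8, 49.6, 43.3 and 53.8 in TO 1 to 4. The log2 fold change was -0.04 (SE 0.13), and its 95% interval of -0.33 to 0.24 covers levels from 0.797 to 1.18 times that of control.

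**Figure D2:**
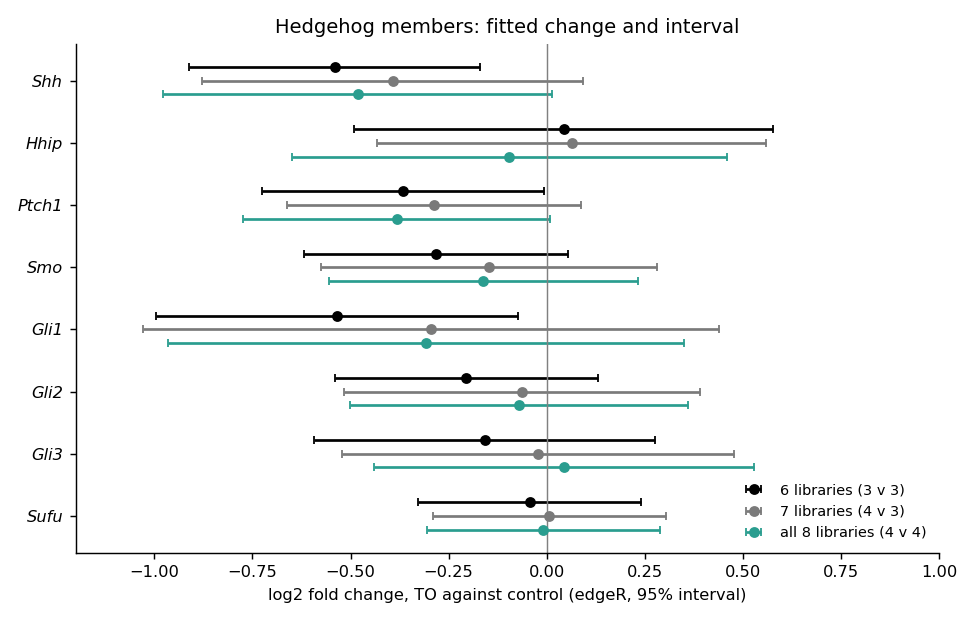
Log2 fold change of TO against control for each Hedgehog gene with its 95% interval from edgeR, in 6 libraries (black), 7 libraries (grey) and all 8 (green), where values below 0 are lower in TO. The intervals of Shh, Ptch1 and Gli1 lie below 0 in the 6 libraries only, from -0.91 to -0.17 for Shh, and each crosses 0 in the 7 and in all 8.

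Read as a group, 7 of the 8 genes had a log2 fold change below 0 in the 6 libraries (Hhip was the exception), with a median of -0.24 against -0.0045 over all genes, where 50.7% of genes were below 0. The median was -0.10 in the 7 libraries, -0.13 in all 8 and -0.39 without TO 4. Shh, Ptch1 and Gli1 were at an unadjusted p below 0.05 and lower in TO, 3 of 8, where 2.07% of all genes were. This count rested on single libraries. It was 1 of 8 without control 1 (background 0.786%), without control 4 (2%), without TO 2 (1.92%) and without TO 3 (1.44%), 3 of 8 without control 2 (0.910%) and 4 of 8 without TO 4 (5.24%). Shh was in the count in each of these fits, at an unadjusted edgeR p of 0.00183 to 0.0486, but not in the 7 libraries, which add control 3 (0.102). Groups of 3 that did not overlap, with TO lower, were found for Shh, Gli1 and Gli2, 3 of 8, where 5.81% of all genes had them. For Gli1 this held with TMM scaling only. None of the 8 genes had groups without overlap once control 3 was in (background with TO lower 1.71% in the 7 libraries and 1.30% in all 8). At an unadjusted p below 0.05, 0 of 8 were lower in TO in all 8 libraries (background 0.918%) and 0 of 8 in the 7 (background 0.737%). The 8 genes share these libraries and are not independent of each other.

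Comparisons within a specimen number, on the log2 CPM scale, split the genes. TO 4 minus the mean of control 1 and control 4 (number 3482) was -0.45 for Shh, -0.19 for Ptch1, -0.18 for Gli1 and -0.15 for Hhip. TO 2 minus control 2 (number 3573) was -0.67 for Shh, -0.19 for Ptch1, -0.57 for Gli1 and 0.58 for Hhip. For TO 3 minus control 3 (number 3604) the values were 0.08 for Shh, -0.33 for Ptch1, 0.46 for Gli1 and -0.43 for Hhip. Ptch1 alone of the 8 was lower in the TO lung under all 3 numbers. The share of all genes of which this holds was not counted, so it does not set Ptch1 apart from genes at large. Gli2 ran like Gli1, at -0.09, -0.43 and 0.56, and Smo did so at -0.09, -0.28 and 0.21. Each number holds 1 TO lung of usable depth, so these differences have no replicate check. With the number as a block in all 8 libraries, the log2 fold change was -0.43 for Shh, -0.36 for Ptch1 and -0.16 for Gli1, with unadjusted edgeR p of 0.0236, 0.0311 and 0.379 and adjusted p of 0.930 or more. The same block in the 7 libraries, added after seeing the data, gave -0.36 (-0.71 to -0.02) for Shh and -0.23 (-0.46 to -0.01) for Ptch1. Their unadjusted edgeR p were 0.0415 and 0.0417, against 0.102 and 0.119 without the block, and both adjusted p were 0.9998. Gli1 was at -0.11 (-0.50 to 0.28) in that fit. With the replicate number as the block in the 7 libraries, also added after seeing the data, control 1 has no partner. The values there were -0.29 (-0.64 to 0.07) for Shh and -0.22 (-0.48 to 0.05) for Ptch1. The share of all genes at an unadjusted p below 0.05 in these block fits is not given here.

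**Figure D3:**
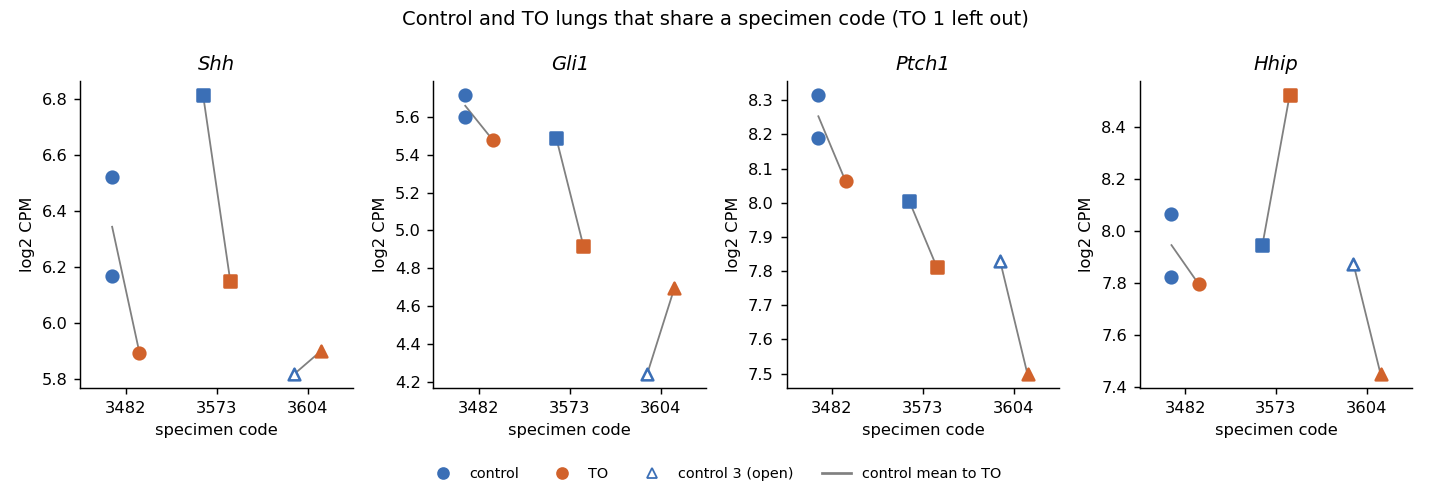
Log2 CPM of Shh, Gli1, Ptch1 and Hhip in control (blue) and TO (orange) lungs, set side by side by the number in the specimen name, with TO 1 left out, control 3 open and a grey line from the control mean to the TO lung. The line slopes down under all 3 numbers for Ptch1 (-0.19, -0.19 and -0.33), and up under 3604 for Shh and Gli1 and under 3573 for Hhip.

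The cell cycle list is given beside Gli1 because both were lowest in the same lungs. The 6 genes (Mki67, Top2a, Ccnb1, Cdk1, Mcm6 and Foxm1) had a mean of 7.51, 7.24, 5.70 and 7.21 log2 CPM in control 1 to 4 and 7.46, 6.66, 5.67 and 7.23 in TO 1 to 4, and their summed level was 413 to 1532 CPM in the 4 controls and 391 to 1240 in TO 2, TO 3 and TO 4. In the 6 libraries 6 of 6 had a fold change below 0 with none at an unadjusted p below 0.05 and a median of -0.68. Among the 7 deep libraries control 3 and TO 3 were lowest in the list and lowest in Gli1, and TO 4 was highest of the TO lungs of usable depth in both. Shh shared this only in part, for TO 4 was low in Shh and not in the list. The part of cell division in the level of Gli1 was not tested.

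**Figure D4:**
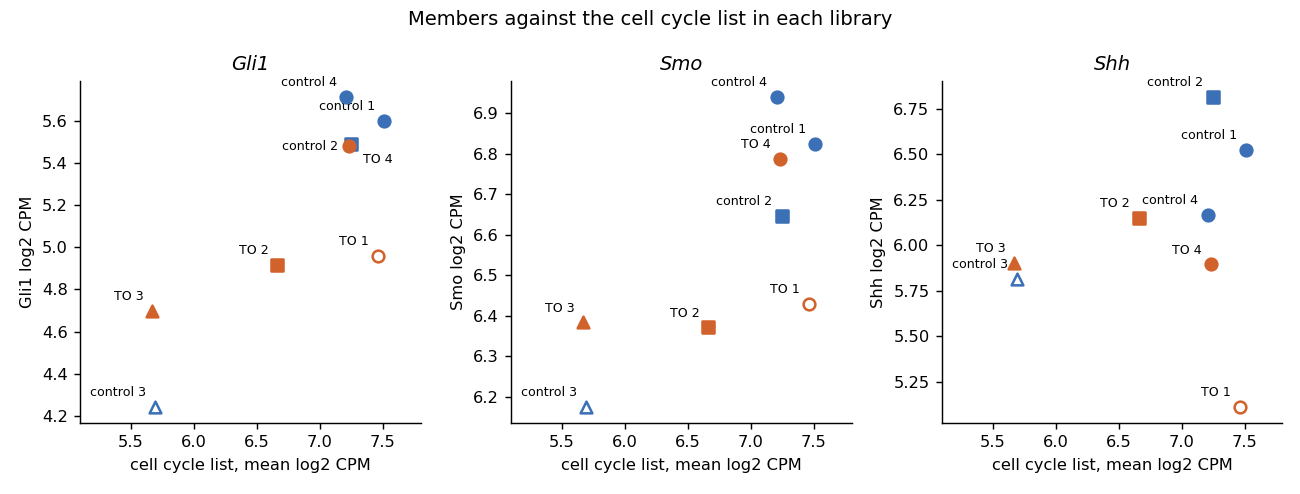
Log2 CPM of Gli1, Smo and Shh against the mean log2 CPM of 6 cell cycle genes, 1 point for each library, blue for control and orange for TO, open for control 3 and TO 1. Control 3 (5.70) and TO 3 (5.67) lie at the left, and among the other deep libraries Gli1 is lowest in TO 2 (6.66).

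Over the 7 deep libraries and 12409 genes with a mean of at least 5 CPM, the genes whose log2 CPM ran most like that of Gli1 were Alg5 (Pearson r 0.997), a glucosyltransferase of the endoplasmic reticulum, Hnrnpa0 (0.990), an RNA-binding protein, Incenp (0.989), a subunit of the chromosomal passenger complex, Cenpm (0.989), a centromere protein, and Pole3 (0.988), a subunit of DNA polymerase epsilon. Of the other Hedgehog genes Smo was closest to Gli1, at 0.968 and rank 54, followed by Gli3 (0.867), Gli2 (0.857), Sufu (0.854), Ptch1 (0.780), Shh (0.600) and Hhip (0.0869). Closest to Shh were Ppic (0.984), Fgd2 (0.981), Samd1 (0.974), Dad1 (0.969) and Eif4a3 (0.969), while the other 7 Hedgehog genes had 0.324 to 0.600 with it. These values describe 7 libraries that include both groups and differ in depth, and with so many genes and so few libraries high values are common.

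The wider pathway was taken as 52 genes in 8 roles, all of which passed the filter. None was called. In the 6 libraries 35 of 52 had a fold change below 0 (all genes 50.7%) and the median was -0.04, against -0.0045 over all genes, and in all 8 libraries 28 of 52 and -0.0091 (all genes 53.2% and -0.018). Outside the 8 genes, 28 of 44 were below 0 in the 6 libraries and 21 of 44 in all 8. At an unadjusted p below 0.05 there were 2 of these 44, both higher in TO (background 3.07% higher), and in all 8 libraries 0 of 44.

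Both other ligands were low, Dhh at 0.471 to 2.01 CPM in the 4 controls and 1.04 to 1.36 in TO 2, TO 3 and TO 4, and Ihh below 1 CPM in every library. Ihh was one of the 2 genes just counted, at 0 to 0.131 CPM in controls 1, 2 and 4 and 0.255 to 0.926 in TO 2, TO 3 and TO 4, with 0.605 in control 3. Its fitted log2 fold change of 2.96 became 1.38 in the 7 libraries, 1.31 in all 8 and 4.20 with the replicate number as a block in the 6, where control 1 and TO 3 have no partner. Of the 6 genes that lipidate and release the ligand, 2 had a fold change below 0 in the 6 libraries, 0 in the 7 and 2 in all 8. None was at an unadjusted p below 0.05 in any of these fits. Scube2, the most abundant of them, which helps release Shh from the cell that made it, had a log2 fold change of 0.41 (SE 0.23) in the 6 libraries and 0.01 in the 7. Of the co-receptors that present ligand to Ptch1, Boc was the most abundant at 23.2 CPM per kb and had a log2 fold change of 0.09 (SE 0.10), and Gas1 (0.41) and Cdon (0.25) were also above 0.

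Inside the cell, 12 of 14 cytoplasmic and ciliary regulators had a fold change below 0, with a median of -0.04 and none at an unadjusted p below 0.05, and 9 of 14 did in the 7 libraries and 8 of 14 in all 8. The ciliary motor subunit Kif3a, the most abundant of them, was at -0.07 (SE 0.11), and Kif7 and Gpr161 were above 0. Kif7, a ciliary kinesin that regulates Gli proteins, was the one pathway gene outside the 8 whose groups did not overlap in the 6, the 7 and all 8 libraries, with TO higher, at 14.4 to 14.97 CPM in controls 1, 2 and 4, 12.1 in control 3, 14.98 to 16.3 in TO 2, TO 3 and TO 4 and 27.5 in the shallow TO 1. The fitted log2 fold change was 0.08 (SE 0.15) in the 6 libraries and 0.25 (SE 0.20) in all 8, with unadjusted edgeR p of 0.605 and 0.252. Of the 44 pathway genes outside the 8, groups without overlap and with TO higher were found for 5 in the 6 libraries (Ihh, Kif7, Gsk3b, Spop and Osr1), 2 in the 7 (Kif7 and Osr1) and 1 in all 8, where 5.09%, 2.25% and 0.710% of all genes had them, and with TO lower for 0. Kinases and ubiquitin ligases that act on Gli proteins were split, 4 of 8 on each side of 0. Prkaca, the catalytic subunit of protein kinase A, was at 0.02 (SE 0.12). Spop, an adaptor that directs Gli proteins to degradation, was the other gene at an unadjusted edgeR p below 0.05, with a log2 fold change of 0.26 (SE 0.11), an unadjusted edgeR p of 0.0402 and an adjusted p of 0.907. Its level was 134 to 150 CPM in the 3 controls and 151 to 182 in the 3 TO lungs, and 188 in control 3, above them all. In the 7 libraries its log2 fold change was 0.15, with an unadjusted p of 0.313.

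None of the downstream genes of the mesenchyme passed the test. Of 10 such genes 9 had a fold change below 0 in the 6 libraries, with a median of -0.15 and none at an unadjusted p below 0.05, and 6 of 10 in all 8. Foxf1, the most abundant of them and a transcription factor of the lung mesenchyme, was at -0.21 (SE 0.20). Foxl1 was at -0.74 (SE 0.38), Mycn at -0.65 (SE 0.33), Wnt5a at -0.25 and Bmp4 at -0.16, and Osr1 was the gene above 0, at 0.47. The list of 8 mesenchymal marker genes, among them Tbx4, Tcf21 and Col1a1, was level between groups, with a mean of 8.89 to 9.01 log2 CPM in the 4 controls and 8.89 to 9.01 in TO 2, TO 3 and TO 4. A list of 7 smooth muscle and myofibroblast genes varied more, at 4.55 to 5.57 log2 CPM in the 4 controls and 4.97 to 5.94 in these TO lungs. Of its genes 5 of 7 had a fold change above 0 in the 6 libraries, with a median of 0.25 and none at an unadjusted p below 0.05. The part of either list was not tested.

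**Figure D5:**
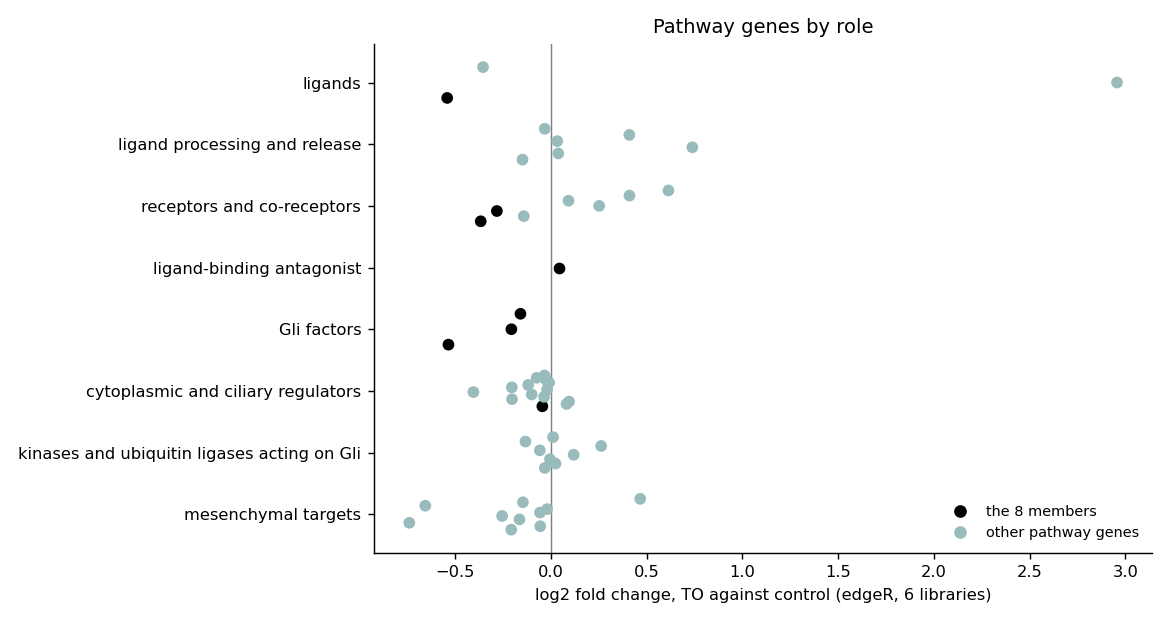
Log2 fold change of TO against control in the 6 libraries for 52 pathway genes arranged by role, the 8 Hedgehog genes in black and the other 44 in grey. Most genes lie near 0, Shh (-0.54) and Gli1 (-0.53) are at the left of the black points, and the point far to the right is Ihh, at under 1 CPM.

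Other tissue in the samples varied as well. Leukocyte genes had a fold change above 0 in 5 of 5 with 4 at an unadjusted p below 0.05, and their summed level was 159 to 271 CPM in the 4 controls and 216 to 368 in TO 2, TO 3 and TO 4. Cardiac muscle genes were above 0 in 6 of 6 with none at an unadjusted p below 0.05, and summed to 484 to 4974 CPM in the controls and 2251 to 5582 in the 3 TO lungs. Airway cartilage, a tissue in which Ihh is known to act, was listed by 7 genes with a summed level of 23.5 to 59.7 CPM in the controls and 45.7 to 56.2 in the 3 TO lungs, of which Matn1 was at 0 in control 1, control 2, control 3 and TO 4 and Cnmd at 0 in control 3. The list of 5 stratified epithelium genes summed to 284 CPM in control 1, 313 in TO 1 and 275 in TO 4, and to 6.72 to 11.3 in the other libraries. These 3 lungs carry the specimen number 3482, as does control 4, which was at 11.3. The part of these tissues in the levels of the Hedgehog genes was not tested.

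Reads of both strands were counted together, and exons of Shh, Gli1, Gli3 and Hhip overlap those of another annotated gene (9530036O11Rik for Shh, Arhgap9 and Gm47200 for Gli1, Gm6556 for Gli3 and Gm27820 for Hhip). Read pairs that fell on both genes of such a pair were left out of the counts, so the levels of these 4 genes are of the remaining stretches.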

How the data were processed

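RNA from 4 control and 4 TO whole lungs was prepared by the authors as NexteraXT libraries for paired reads of 150 bp. Alignment by the authors used STAR and GRCm38. What they deposited is the unnormalized, unfiltered count of read pairs on each gene, and the column in which strands are summed was used. The STAR version and the annotation are not given in the sources used here. Of 55385 identifiers, 54487 are identical to those of GENCODE M21 and 55144 match it when versions are dropped. This release gave symbols, coordinates and exon lengths. Rows that name no gene held 23.1% to 27.1% of read pairs and were left out.

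A gene was tested where 3 or more libraries had 5 reads on it. The test of TO against control was edgeR's quasi-likelihood test (edgeR 4.0.16, R 4.3.3) after TMM scaling. Its p-values were adjusted over every gene tested by the Benjamini-Hochberg method, with 0.1 as threshold, as in the study. CPM was computed here from the deposited counts with TMM factors of all 8 libraries (log2 CPM with a prior count of 2). Intervals for TO 1 are exact Poisson intervals at 95% and cover counting error only, since reads carry no molecular identifiers. The 8 genes and all lists were chosen with earlier results of these data known. Other genes named were those of the pathway list at an unadjusted p below 0.05, the most abundant per kilobase in each role, and the 5 closest to Gli1 and to Shh. Further pathway genes were named after their values were seen. In the pathway list, 1 gene is not reported here by name and stays in the counts. The model was also run on simulated counts, with planted fold changes larger than those fitted for the 8 genes and no structure by specimen number. That run cannot speak to changes of the size seen here. Alternatives were all 8 or 7 libraries, other filters, DESeq2 size factors, DESeq2 1.42.0, limma-voom (limma 3.58.1), blocks and each library left out. In 7 libraries the specimen number and the replicate number as blocks were added after seeing the data. Same-numbered lungs deviated together in the 7 deep libraries (every pair above 0.1) and not in every pair of all 8, and nothing in the sources used here says what the numbers mark.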

Additional observations from a re-analysis of the deposited data

Results flagged for a closer look

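In groups of 4 lungs, 20 groups were examined for a lung far from the other 3, and 2 stood out by Dixon's test at 95%, where chance gives about 1 in 20. Smo in TO 4 was 110 CPM, with 82.7 to 86.1 in the other TO lungs, of which TO 1 rests on 25 read pairs with a 95% counting interval of 55.7 to 127 CPM that spans the value of TO 4. Gli2 in control 3 was 18.49 CPM, with 29.1 to 30.2 in the other controls.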

How the results depend on the processing

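The counts of calls, the median of the pathway list and the fold changes of the 8 genes were recomputed under 18 alternatives, and the levels of the 8 genes under 1. Shh, Ptch1 and Smo kept a log2 fold change below 0 in all 18 (Shh -0.69 to -0.29, Ptch1 -0.51 to -0.16, Smo -0.43 to -0.06), and none of them was called in any. Gli1 was below 0 in all 18 (-0.79 to -0.11) and called only without TO 4. The number of genes called in the 6 libraries was 0 by edgeR, 40 with no filter beyond 1 read and 44 by DESeq2, and 0 to 144 with 1 library left out (144 without TO 4, 52 without control 4). With 1 library left out, 0 to 1 of the Hedgehog genes and 0 to 1 of the pathway list were called, that 1 being Gli1. Ranked by the longest transcript, 4 of 8 genes kept their place in the order of levels. Depth limits TO 1, where each of the 8 genes had 7 to 44 read pairs.

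The replicate numbers of the labels were also used as a block, though nothing in the sources used here says that a number marks a shared litter or day. Deviations of same-numbered lungs from their group means correlated across genes at 0.0518, 0.13, 0.157 and 0.0709 in all 8 libraries, where control 1 correlated best with TO 4. In the 7 deep libraries the 3 same-numbered pairs had 0.125, 0.204 and 0.109, all above 0.1, and control 1 with TO 4, which share a specimen number, had 0.168. Pairs that share neither number had 0.014 or less there. With the replicate block 219 genes were called in the 6 libraries, 5 in the 7 and 3 in all 8. In the 6 libraries control 1 and TO 3 have no same-numbered partner. That fit therefore compares the groups only through control 2 with TO 2 and control 4 with TO 4, and its 219 calls rest on these lungs. The block called none of the Hedgehog genes, with Shh at -0.47 (edgeR, adjusted p = 0.292) in the 6 libraries and -0.42 in all 8, and Ptch1 at -0.16 and -0.38. With the specimen number as a block, 0 genes were called in all 8 libraries and 1 in the 7, not a Hedgehog gene.

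Gli2, Gli3, Hhip and Sufu, none of them called, changed sign in some settings, and the cause was not tested. Gli3 was 0.043 in all 8 libraries, 0.054, 0.12 and 0.12 with the replicate block in the 6, the 7 and all 8, and 0.088 and 0.073 with the specimen number as a block in all 8 and in the 7. Hhip was -0.10 in all 8 libraries, -0.016 by limma-voom, -0.18 with the replicate block in all 8, -0.16 and -0.017 with the specimen number as a block in all 8 and in the 7, and -0.31 to 0.27 with 1 library left out, lowest without TO 2. Sufu was 0.0068 in the 7 libraries, 0.031 and 0.016 with the replicate block in the 6 and the 7, 0.0098 and 0.030 with the specimen number as a block in all 8 and in the 7, and -0.12 to 0.050 with 1 library left out. In the 7 libraries Gli2 was 0.00097 with the specimen number as a block and 0.020 with the replicate block.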
